A study of Drosophila melanogaster with 12 samples.

Results

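The genes described here are the 9 nuclear lamina and nuclear envelope genes Lam, LamC, LBR, bocks, Ote, MAN1, koi, klar and Msp300, picked by their symbols from the 18277 genes of the Ensembl BDGP6 annotation, of which 13968 are protein-coding. All 9 symbols matched 1 gene each, all 9 had a peak in at least 1 library, and they are compared with the 7904 protein-coding genes that had one. The measurement is RNA polymerase II with phosphorylated Serine 5 in its C-terminal domain (Pol II S5), the form found from the promoter into the early gene body, mapped by ChIP-seq in Kc167, a female Drosophila melanogaster cell line of embryonic origin. The mock cells were nucleofected with neither dsRNA nor siRNA, the AGO2 KD cells received an siRNA against AGO2, an Argonaute protein, and the LaminB KD cells received a dsRNA against LaminB. Each group had 2 libraries, written here as mock 1 and 2, AGO2 KD 1 and 2 and LaminB KD 1 and 2, and each library is 1 list of broad enriched regions (peaks) called against its own input. The study used AGO2 KD to ask whether AGO2 affects elongating Pol II, with LaminB KD as a specificity control. By a test of read counts, it reported gains of Pol II S5 at genes up-regulated after AGO2 KD and losses at down-regulated ones. It reported a lesser effect of LaminB KD on Pol II S5. The values below come from peak lists that are not scaled to one another, which is another measure. The 2 knockdowns used different kinds of RNA but share the mock libraries, so the kind of RNA and the target cannot be told apart, and nothing in the labels says whether the libraries of a group came from separate cultures, so the tests below measure only the spread between these libraries.

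The nuclear lamina is a mesh of intermediate filament proteins, the lamins, that lines the inner side of the nuclear envelope and holds part of the silent chromatin at the nuclear edge. Flies have a single B-type lamin, which Lam encodes and which the labels call LaminB, and a single A-type lamin, which LamC encodes. Proteins of the inner nuclear membrane anchor the lamina. Among them are the lamin B receptor LBR and the LEM domain proteins bocksbeutel (bocks), Otefin (Ote) and MAN1, whose shared domain binds the chromatin protein BAF. The LINC complex crosses both membranes and joins the lamina to the cytoskeleton, with the SUN domain protein klaroid (koi) on the inner side and the KASH domain proteins klarsicht (klar) and Msp300 on the outer side.

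Sequences around 4 starts are shown from the dm6 genome (RefSeq copy), because these starts mark the contrasts described below: the promoter of the gene targeted in LaminB KD, the outermost Msp300 start that no library had under a peak, and the starts of Msp300 and of klar with the highest mean fold among the starts of the same gene under a peak in all 6 libraries. Each window holds 150 bases upstream of an annotated start and the first 20 bases from it, read in the direction of transcription, and none of the upstream bases was annotated as exonic. Capitals mark matches on either strand to any of 5 motifs, which are TATAAA for the TATA box, TCAGT for the core of the initiator, TATCGATA for the DNA replication-related element (DRE), CAGCTG for an E-box and GAGAG for the site of GAGA factor. The windows are chr2L:5542330-5542499 (plus strand), chr2L:5108362-5108531 (plus strand), chr2L:5100727-5100896 (plus strand) and chr3L:490804-490973 (minus strand).
Lam, outermost start: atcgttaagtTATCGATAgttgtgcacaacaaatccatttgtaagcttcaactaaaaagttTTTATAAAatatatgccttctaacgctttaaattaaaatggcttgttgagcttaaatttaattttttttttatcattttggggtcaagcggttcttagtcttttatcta
Msp300, internal start: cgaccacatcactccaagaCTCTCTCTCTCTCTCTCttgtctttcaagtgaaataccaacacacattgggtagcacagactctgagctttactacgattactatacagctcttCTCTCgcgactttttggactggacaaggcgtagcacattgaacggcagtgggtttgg
Msp300, outermost start: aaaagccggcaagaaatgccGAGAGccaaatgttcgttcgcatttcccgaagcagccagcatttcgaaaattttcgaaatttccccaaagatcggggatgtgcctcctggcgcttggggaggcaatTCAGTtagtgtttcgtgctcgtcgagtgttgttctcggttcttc
klar, internal start: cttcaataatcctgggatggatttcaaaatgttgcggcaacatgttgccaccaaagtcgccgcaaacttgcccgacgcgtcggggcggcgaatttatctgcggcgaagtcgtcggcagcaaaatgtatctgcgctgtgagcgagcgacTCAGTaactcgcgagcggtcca

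The Lam window was rich in A and T, with 27.6% G and C against a median of 38.8% over the windows of all 13968 protein-coding genes at their outermost start. It held a DRE whose first base lay at position -140 from the start, and a TATAAA at position -87 that overlapped a match on the other strand at -89. The internal Msp300 window held 8 GAGAG matches, all on the other strand, of which those between positions -131 and -119 overlap in a single run of alternating C and T. The outermost Msp300 window held 1 GAGAG, at -130, and a TCAGT at -24. In the klar window the TCAGT began at position -2, so that it spans the annotated start itself. A match is a description of the letters and not a bound site. TATAAA was found in the outermost windows of Lam, MAN1 and klar and in 30.3% of all such windows, TCAGT in those of LamC, LBR, Ote, MAN1 and Msp300 and in 38% of all, and TATCGATA in that of Lam and in 7.82% of all. GAGAG was found in those of LamC and Msp300 and in 19.8% of all, and CAGCTG in none of the 9 and in 11.9% of all.

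The 6 lists held between 5108 and 8541 peaks and covered between 4.19 and 14.6 Mb, with a mean peak width of 821 to 1711 bp. Both extremes belonged to LaminB KD, with LaminB KD 1 at the top and LaminB KD 2 at the bottom of all 3 measures, and read depth is unknown from these lists. Covered lengths were 8.27 and 10.5 Mb in mock and 5.57 and 8.01 Mb after AGO2 KD, so that both AGO2 KD libraries had less covered genome than either mock library. The part of these library-wide differences in the values below was not tested. Of 7 hemocyte and matrix markers, genes of the lineage Kc167 cells resemble, 6 had a start under a peak in mock, against 1 of 3 neuronal, 0 of 3 muscle and 0 of 3 germline markers. The germline markers vas and bgcn did have peaks away from their starts in mock. The median percent of the gene under peaks in mock was 17.7% and 18.1% over the germline markers. It was 3.35% and 3.42% over the hemocyte and matrix markers, so that measure did not set the latter apart.

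Pol II S5 was found at the start of nearly all of these genes, in treated and untreated cells alike. All 9 had a promoter peak, meaning a peak within 1500 bp of an annotated start, in all 6 libraries, against 45.4% of all protein-coding genes. A start base itself lay under a peak in all 6 libraries at 8 of the 9, with MAN1 the exception, against 27.3% of all protein-coding genes. These 2 backgrounds, 6347 and 3819 genes, are shares of all 13968 protein-coding genes. They include genes without a peak in any library, and are not shares of the 7904 genes with a peak, to which all 9 belong. The genes have 25 annotated starts, of which 18 were under a peak in every library and 2, the outermost of Msp300 and the one of klar 102840 bp inside the gene, in none. The number of starts under a peak was 23 in both mock libraries, 19 in both AGO2 KD libraries, 23 in LaminB KD 1 and 18 in LaminB KD 2. Most of these promoters face another gene: 8 of the 9 had the start of an opposite-strand gene within 1000 bp upstream, against 46.7% of the genes with a peak, and LamC was the exception. ChIP-seq carries no strand, so where a peak spans both starts the Pol II S5 of these genes and of their neighbours cannot be told apart. A single peak spanned both starts in all 6 libraries at Lam (neighbour Hel25E, 166 bp away), bocks (CG8312, 307 bp), koi (ubl, 489 bp) and klar (BORCS6, 237 bp). Such a peak was called in 4 libraries at LBR (Tango11, 532 bp), 3 at MAN1 (Chi, 31 bp) and 2 at Ote (pen-2, 262 bp).

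How much of each gene lay under peaks, its covered share, was compared next. The members' median covered share was 48.1% and 60.4% in mock, 24.1% and 61.4% after AGO2 KD and 82.5% and 10.9% after LaminB KD. Over all genes with a peak the medians were 21% and 31.7% in mock, 10.9% and 20.3% after AGO2 KD and 56.4% and 6.24% after LaminB KD. The members' median lay above that of all genes in every library. klar and Msp300 lay below the median of all genes in every library, and MAN1 did in AGO2 KD 1, AGO2 KD 2 and LaminB KD 2. Both medians put the libraries in the same order except for AGO2 KD 2. There the members' median lay above both mock libraries and the median of all genes below both. In mock 1, mock 2 and AGO2 KD 2 the members' median was the value of LamC. AGO2 KD 2 lay above both mock libraries at 2 of the 9 genes, Lam and LamC, and below both at 6. In the plot of covered share by library, the compact genes LBR, bocks and Ote sit near the top in mock, and the giant genes klar and Msp300 stay under 6% throughout.

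**Figure D1:**
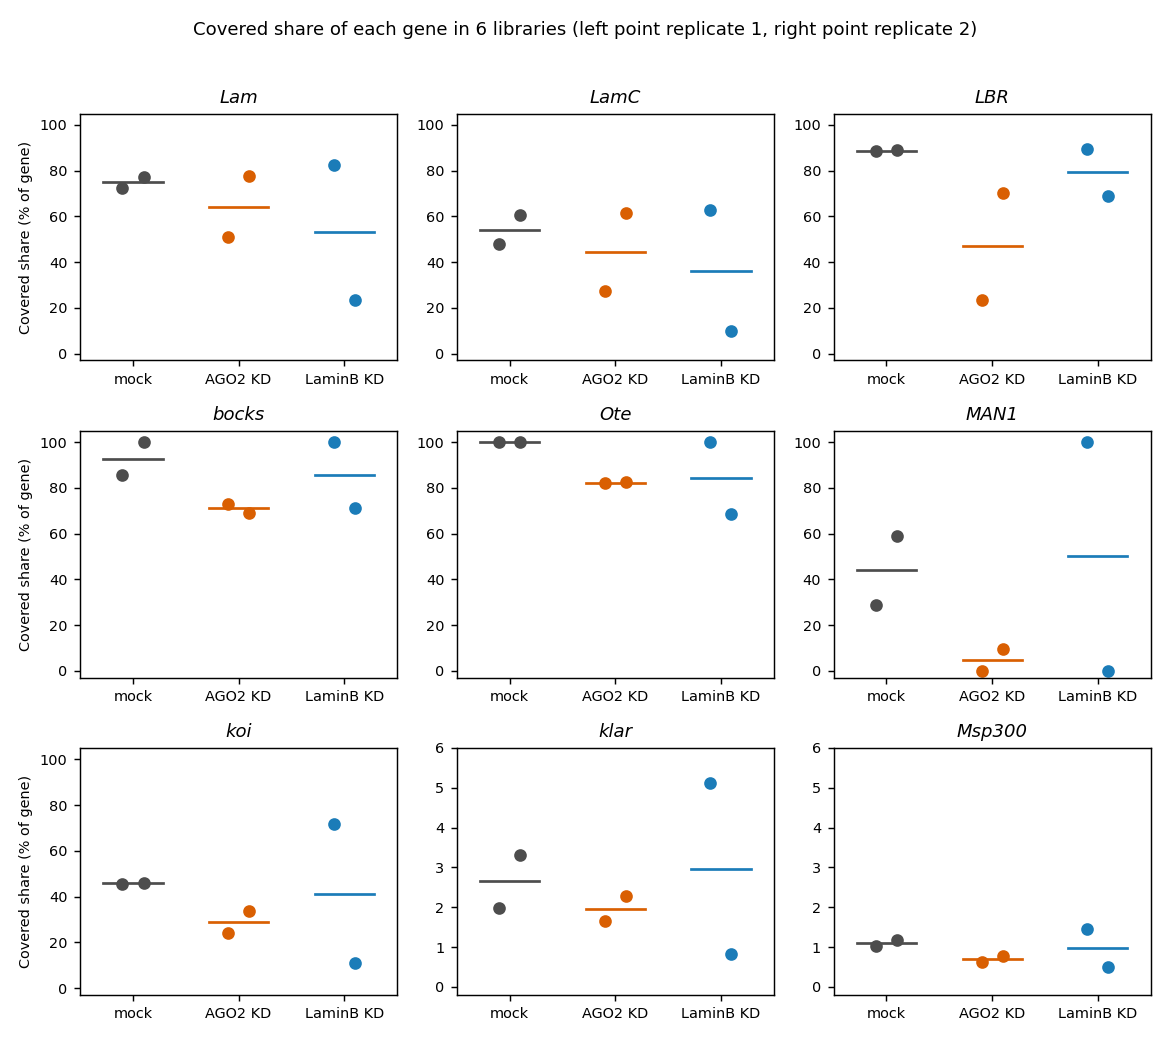
Covered share (percent of the annotated gene under Pol II S5 peaks) of the 9 genes in mock, AGO2 KD and LaminB KD, with 1 point per library, replicate 1 left and replicate 2 right, and a line at the mean of 2 libraries. The scale ends at 6% for klar and Msp300. The LaminB KD points are at 100% and 0% at MAN1, the widest pair shown, and at LBR the AGO2 KD points, at 23.4% and 70.4%, lie farther apart than the LaminB KD points.

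The lamin genes came first. Lam (FBgn0002525, dm6 chromosome 2L, 5542480 to 5546642, plus strand) had a covered share of 72.5% and 77.4% in mock, 50.8% and 77.5% after AGO2 KD and 82.5% and 23.5% after LaminB KD. AGO2 KD 2 lay marginally above mock 2 while AGO2 KD 1 lay below both mock libraries, and the LaminB KD libraries fell on either side of mock, so neither knockdown was separated from mock at the gene that the LaminB dsRNA targets. RNA interference acts on the transcript and not on the polymerase, so these values are no check of the depletion. The peak over the Lam promoter ran into the gene for 3018 and 3031 bp in mock, 1080 and 3031 bp after AGO2 KD and 3086 and 977 bp after LaminB KD. In AGO2 KD 1 a separate peak covered 1992 to 3026 bp from the start, so that its coverage ended at the same place as in mock with a gap in the middle, and in LaminB KD 2 coverage stopped in the first part of the gene. A small further peak in the last exonic part, beginning 3813 to 3855 bp from the start, was called in mock 2, AGO2 KD 2 and LaminB KD 1 only. The fold of the promoter peak over its local background was 4.44 and 3.96 in mock, 5.05 and 4.06 after AGO2 KD and 4.33 and 3.43 after LaminB KD.

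LamC (FBgn0010397, chromosome 2R, 14570810 to 14575771, minus strand) had a covered share of 48.1% and 60.4% in mock, 27.4% and 61.4% after AGO2 KD and 62.8% and 9.67% after LaminB KD. As at Lam, one library of each knockdown lay above both mock libraries and the other below. LamC carried 2 peaks that differed in how much they varied. The promoter peak reached 1114 and 1176 bp into the gene in mock, 1176 and 1190 bp after AGO2 KD and 1202 and 480 bp after LaminB KD, nearly the same in all libraries but LaminB KD 2. The second peak, at the other end of the gene, covered 1271 and 1822 bp of it in mock, 185 and 1859 bp after AGO2 KD and 1914 bp after LaminB KD 1, mostly exonic, and was absent from LaminB KD 2. The fold of the promoter peak was 5.26 and 6.58 in mock, 5.09 and 5.04 after AGO2 KD and 5.70 and 3.29 after LaminB KD. That of the second peak was lower, between 2.46 and 2.76 in the 5 libraries that had it. LamC lies wholly inside ttv, a gene of the opposite strand, so peaks over LamC cannot be told apart from Pol II S5 on ttv. Among 5172 protein-coding genes of at least 2 kb, the covered shares most like those of Lam over the 6 libraries were those of Nop17l, dgt1 and Pitslre, with root mean square differences of 4.08, 4.10 and 4.62 percentage points, and most like those of LamC were BtbVII, PpD3 and Opbp, at 5.26, 5.77 and 6.48 points.

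LBR (FBgn0034657, chromosome 2R, 21720495 to 21724055, plus strand), whose protein binds B-type lamin and chromatin, had a covered share of 88.5% and 89.0% in mock, 23.4% and 70.4% after AGO2 KD and 89.6% and 68.9% after LaminB KD. Both AGO2 KD libraries lay below both mock libraries, and LaminB KD 2 lay below mock as well. The 3 lower libraries shared the place where the promoter peak ended. In mock 1, mock 2 and LaminB KD 1 a single peak ran 3150, 3169 and 3190 bp into the gene. In AGO2 KD 1, AGO2 KD 2 and LaminB KD 2 the promoter peak ended 832, 831 and 799 bp from the start. A second, wholly exonic peak then began 1434 bp from the start in AGO2 KD 2 and 1440 bp in LaminB KD 2, and AGO2 KD 1 had none. No 2 peaks of any list lay closer than 589 bp, so gaps shorter than that do not appear in these lists. The fold of the LBR promoter peak was 3.62 and 3.43 in mock, 4.43 and 3.96 after AGO2 KD and 3.40 and 3.62 after LaminB KD, as averages over the whole peak, so that LaminB KD 2, with the shortest reach, had the same fold as mock 1. In mock 2, both AGO2 KD libraries and LaminB KD 1 that peak also spanned the start of Tango11, 532 bp away on the opposite strand. In mock 2 and LaminB KD 1 it reached on to CG30398. These folds are therefore not of LBR alone and average different extents.

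At all 3 LEM domain genes both AGO2 KD libraries lay below both mock libraries, as they did at 42.1% of all genes with a peak. Ote (FBgn0266420, chromosome 2R, 18275607 to 18277177, minus strand), needed for germline stem cell maintenance in the ovary, had a covered share of 100% in both mock libraries, 82.1% and 82.4% after AGO2 KD and 100% and 68.5% after LaminB KD. The AGO2 KD libraries agreed closely with each other, and the uncovered stretch lay at the end of the gene: its peak reached 1761 bp in both mock libraries, past the gene end, and 1290 and 1295 bp after AGO2 KD. The peak reached 1792 bp in LaminB KD 1 and 1076 bp in LaminB KD 2.

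bocks (FBgn0037719, chromosome 3R, 9589468 to 9591002, minus strand) had a covered share of 85.5% and 100% in mock, 73.0% and 69.0% after AGO2 KD and 100% and 71.0% after LaminB KD. Both AGO2 KD libraries and LaminB KD 2 lay below mock, each with a peak that ended 1059 to 1121 bp from the start, against 1313 bp in mock 1. In mock 2 and LaminB KD 1 the peak ran on for 8091 and 8077 bp, across P58IPK, whose annotation overlaps the end of bocks by 114 bp, and further genes beyond it. Their full coverage of bocks was thus part of a much longer enriched block.

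MAN1 (FBgn0034962, chromosome 2R, 24033974 to 24036707, plus strand), known in flies to dampen BMP signalling, had the widest range of the 9 genes. Its covered share was 29.0% and 59.0% in mock, 0% and 9.40% after AGO2 KD and 100% and 0% after LaminB KD. Both AGO2 KD libraries lay below mock, and the LaminB KD libraries held the highest and the joint lowest value. The start of MAN1 lies 31 bp from that of Chi, a cofactor of LIM domain transcription factors. A peak over both starts was called in mock 1, mock 2 and LaminB KD 1. In AGO2 KD 1, AGO2 KD 2 and LaminB KD 2 the peak lay over Chi alone and ended 65, 12 and 92 bp before the start of MAN1. The covered share of Chi was 83% and 68.7% in mock, 52.4% and 40.6% after AGO2 KD and 85.6% and 23.6% after LaminB KD, with the same libraries low. In LaminB KD 1, MAN1 was covered from end to end by a peak that also covered Chi and ran 7895 bp from the start of MAN1 into Not11 and IntS1.

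**Figure D2:**
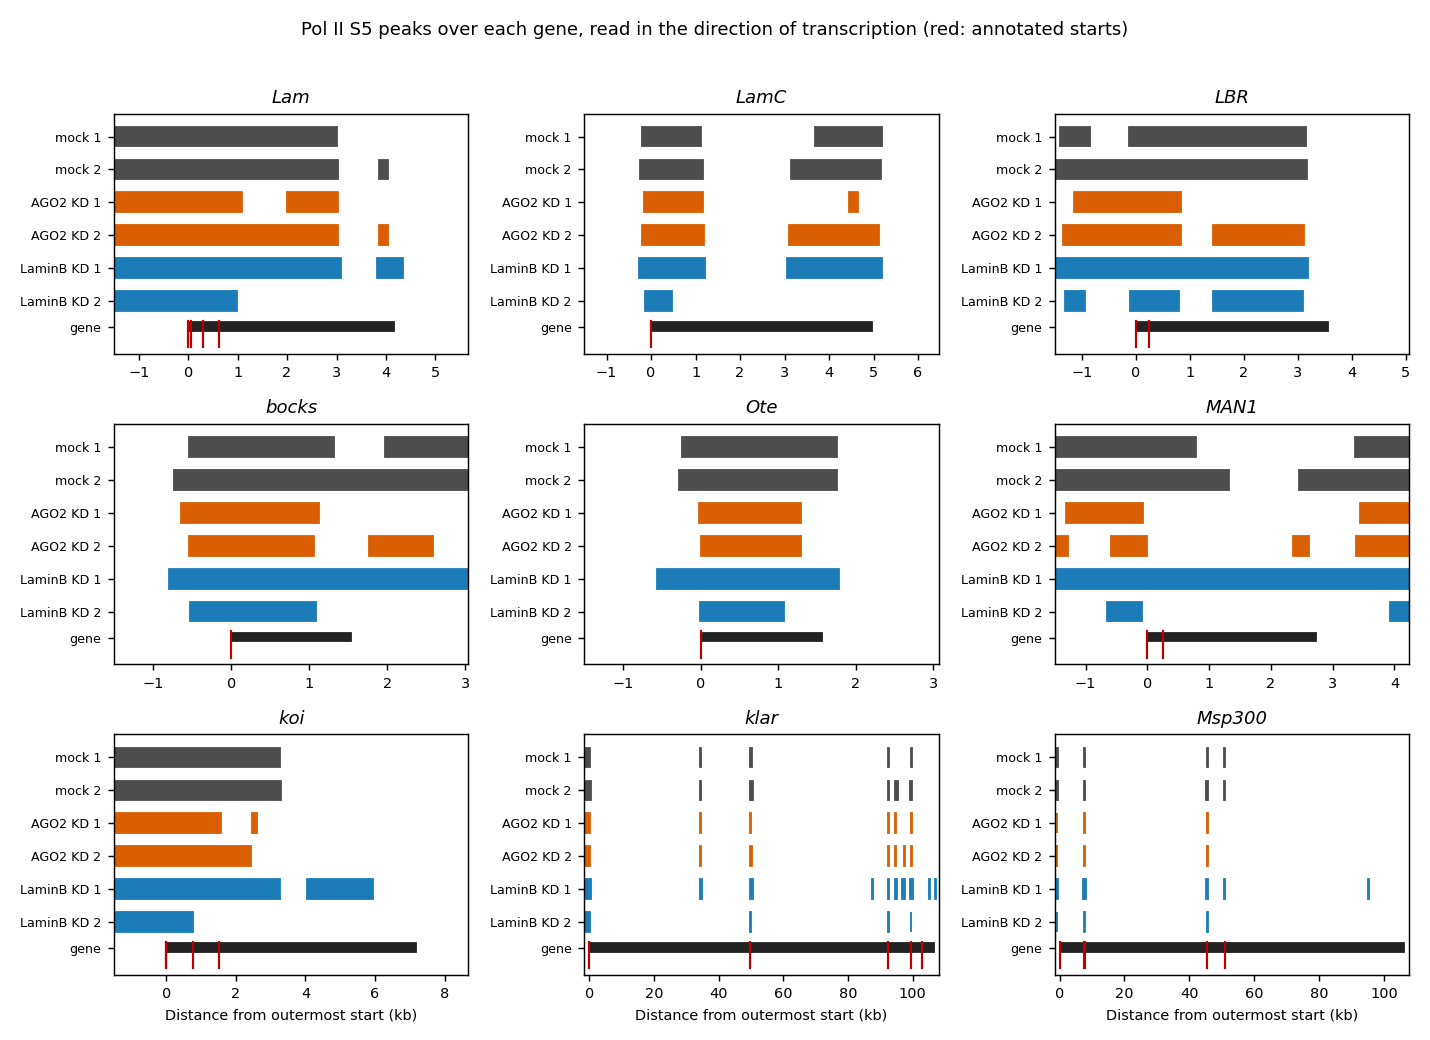
Pol II S5 peaks over the 9 genes in the 6 libraries, drawn to scale against the distance in kb from the outermost annotated start in the direction of transcription, cut 1.5 kb beyond each gene. The black bar is the gene and red ticks are annotated starts; at LBR the promoter peak ends near 0.8 kb in AGO2 KD 1, AGO2 KD 2 and LaminB KD 2, and at MAN1 the same libraries have no peak over the start.

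In the LINC complex, koi (FBgn0265003, chromosome 2R, 6811019 to 6818199, plus strand) had a covered share of 45.7% and 45.9% in mock, 24.1% and 33.9% after AGO2 KD and 71.8% and 10.9% after LaminB KD. Both AGO2 KD libraries lay below mock, whereas the LaminB KD libraries enclosed it. The promoter peak, which also covered ubl and reached into SdhB and CG15237, ran into koi for 3281 and 3293 bp in mock, 1575 and 2431 bp after AGO2 KD and 3261 and 780 bp after LaminB KD. LaminB KD 1 did not reach farther than mock, and its higher share came from an additional peak of 1892 bp, mostly exonic, that began 4046 bp from the start.

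klar and Msp300 showed another pattern, with narrow peaks at separate internal starts of very long genes. klar (FBgn0001316, chromosome 3L, 434083 to 540614, minus strand), which positions nuclei in photoreceptor cells, had a covered share of 1.99% and 3.31% in mock, 1.65% and 2.27% after AGO2 KD and 5.12% and 0.823% after LaminB KD. AGO2 KD 2 lay between the mock libraries, so neither knockdown was separated. Its 4 starts that had peaks, at the outermost position and 49791, 92482 and 99518 bp inside the gene, were under a peak in all 6 libraries. The start at 49791 bp, whose sequence is shown above, carried folds of 6.41 and 6.30 in mock, 7.02 and 6.13 after AGO2 KD and 6.0 and 4.52 after LaminB KD, between the 91.8 and 96.7 percentile of all peaks of the same library. A peak away from any annotated start, 34272 to 34337 bp inside the gene at its near edge, was called in all libraries but LaminB KD 2. The number of peaks in the body, from 500 bp downstream of the outermost start, was 4 and 5 in mock, 5 and 6 after AGO2 KD and 8 and 3 after LaminB KD.

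Msp300 (FBgn0261836, chromosome 2L, 5100877 to 5207002, plus strand), a giant nesprin best known for placing nuclei in muscle, had a covered share of 1.04% and 1.18% in mock, 0.628% and 0.766% after AGO2 KD and 1.46% and 0.508% after LaminB KD. Both AGO2 KD libraries lay below mock by a gap of 0.273 percentage points. The outermost start was free of peaks in every library, and the nearest one lay upstream, over ND-13A. The start 7635 bp inside the gene, with the run of GAGAG matches, carried folds of 8.07 and 6.90 in mock, 5.93 and 7.08 after AGO2 KD and 8.85 and 5.35 after LaminB KD. In 5 libraries that peak stood at or above the 98.2 percentile of its list, and in AGO2 KD 1 at the 89.4 percentile. Its width was 574 and 576 bp in mock, 403 and 464 bp after AGO2 KD and 621 and 327 bp after LaminB KD. A start 7937 bp inside the gene lay at the edge of this peak and was covered in mock and LaminB KD 1 only. The start at 45509 bp was under a peak in all 6 libraries, with folds of 3.94 to 6.28. The start at 50872 bp had a low peak, of fold 2.65 and 2.55 in mock and 3.07 in LaminB KD 1, and none in AGO2 KD or LaminB KD 2. The plot of fold by start places these sites side by side.

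**Figure D3:**
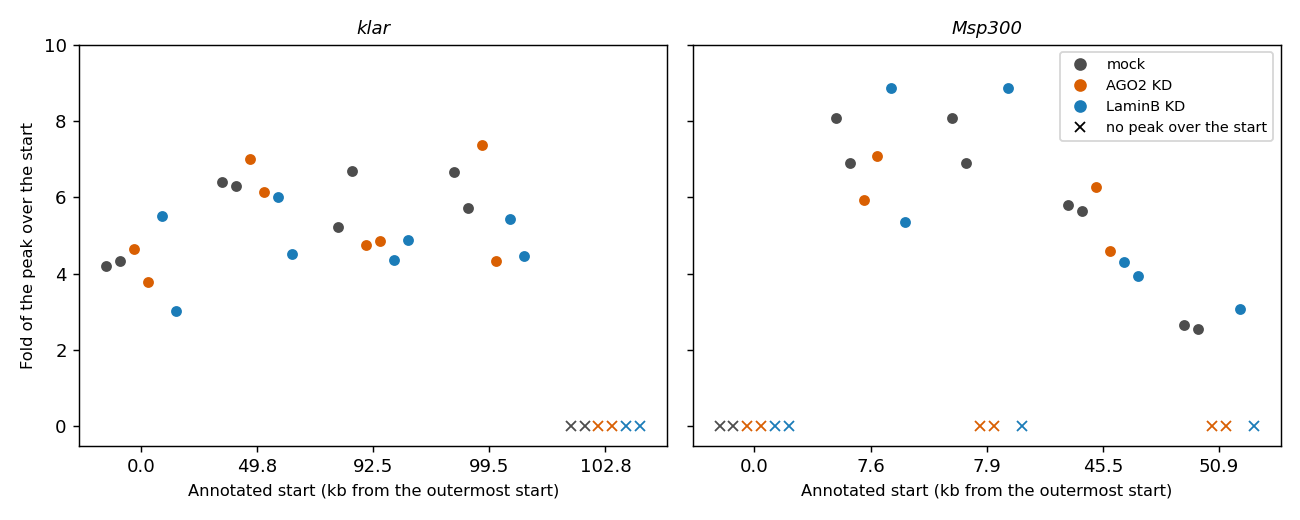
Fold over local background of the peak lying over each annotated start of klar and Msp300, against the position of the start in kb from the outermost one, with a point per library and a cross at 0 where no peak lay over the start. The Msp300 starts at 7.6 and 7.9 kb share a peak, whose fold reached 8.85 in LaminB KD 1, and the outermost Msp300 start has 6 crosses.

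The difference from mock was then summarised for each knockdown. In AGO2 KD, 6 of the 9 genes (LBR, bocks, Ote, MAN1, koi and Msp300) had both libraries below both mock libraries and 0 had both above. Ote, at 100% in both mock libraries, and bocks, at 100% in mock 2, could not lie above mock in either knockdown. Over all genes with a peak, 42.1% were lower and 0.443% higher by the same rule, so being lower was frequent in the whole table. When the nearest libraries had to lie 10 or more points apart, 5 of the 9 (LBR, bocks, Ote, MAN1 and koi) were lower against 10.2% of all genes. A gene under 10% in either mock library cannot be lower by that rule. The members' mock medians were higher than those of all genes, at 48.1% and 60.4% against 21% and 31.7%. No gene can fall by more than its mock share, which limits the median differences below in the same way. Whether these genes differ from the rest was not tested. The difference in mean covered share was -41.8 percentage points at LBR (88.7% ± 0.377 in mock and 46.9% ± 33.3 in AGO2 KD, SD, n = 2 each), -39.3 at MAN1 (44.0% ± 21.2 and 4.70% ± 6.65) and -21.8 at bocks (92.8% ± 10.2 and 71.0% ± 2.86). It was -17.7 points at Ote (100% ± 0 and 82.3% ± 0.225), -16.8 at koi (45.8% ± 0.118 and 29.0% ± 6.87) and -0.413 at Msp300 (1.11% ± 0.0999 and 0.697% ± 0.0973). For these 6 the exact two-sided permutation test gave p = 0.333, the smallest that 2 libraries against 2 allow, and an adjusted p of 0.783 (Benjamini-Hochberg over 7904 genes), so no difference passed 0.05. The other 3 overlapped with mock, with differences of -10.8 points at Lam (exact permutation p = 1), -9.80 at LamC (p = 1) and -0.696 at klar (p = 0.667). The median difference was -16.8 points over the 9 genes and -3.89 over all genes with a peak. When each gene was ranked by covered share within its library, a comparison chosen after seeing the data, 3 genes (LBR, Ote and MAN1) were lower and 4 (Lam, LamC, klar and Msp300) higher in AGO2 KD, against 10.8% and 42.7% of all genes. The value at LBR was -18.3 points without AGO2 KD 1 and -65.4 without AGO2 KD 2, that at MAN1 was -24.3 without mock 2, and without AGO2 KD 1 Lam and LamC lay above mock, at 2.58 and 7.20 points. That at klar ran from -1.36 points without mock 1 to -0.0347 without mock 2.

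In LaminB KD, 0 of the 9 genes had both libraries below mock and 0 had both above, against 2.3% and 0.278% of all genes, and the exact two-sided permutation p was 1 at every one of the 9. None had an unadjusted p under 0.05, which this design cannot give. LaminB KD 1 had the highest covered share, ties included, at 9 of the 9 (87.3% of all genes), and LaminB KD 2 the lowest at 7 (81.8% of all genes), with LBR lowest in AGO2 KD 1 and bocks lowest in AGO2 KD 2. The mean differences from mock, of which the largest in size was -21.9 percentage points at Lam (74.9% ± 3.45 in mock and 53.0% ± 41.8 after LaminB KD, SD, n = 2 each), were therefore averages of libraries on opposite sides of the mock mean, except at Ote, where LaminB KD 1 equalled mock and the difference came from LaminB KD 2 alone. They were -18.0 points at LamC, -15.8 at Ote, -9.48 at LBR, -7.26 at bocks, -4.46 at koi, -0.126 at Msp300, 0.316 at klar and 6.02 at MAN1. The median was -7.26 points over the 9 genes and -0.0389 over all genes with a peak. Without LaminB KD 1 all 9 lay below mock (79.9% of all genes), and without LaminB KD 2, 7 lay above it (72.3% of all genes). The LaminB KD result thus depended on which library was kept. Ranked within each library, again chosen after seeing the data, Lam, LamC and Ote were lower in LaminB KD and 0 were higher, against 16.1% and 16.4% of all genes.

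**Figure D4:**
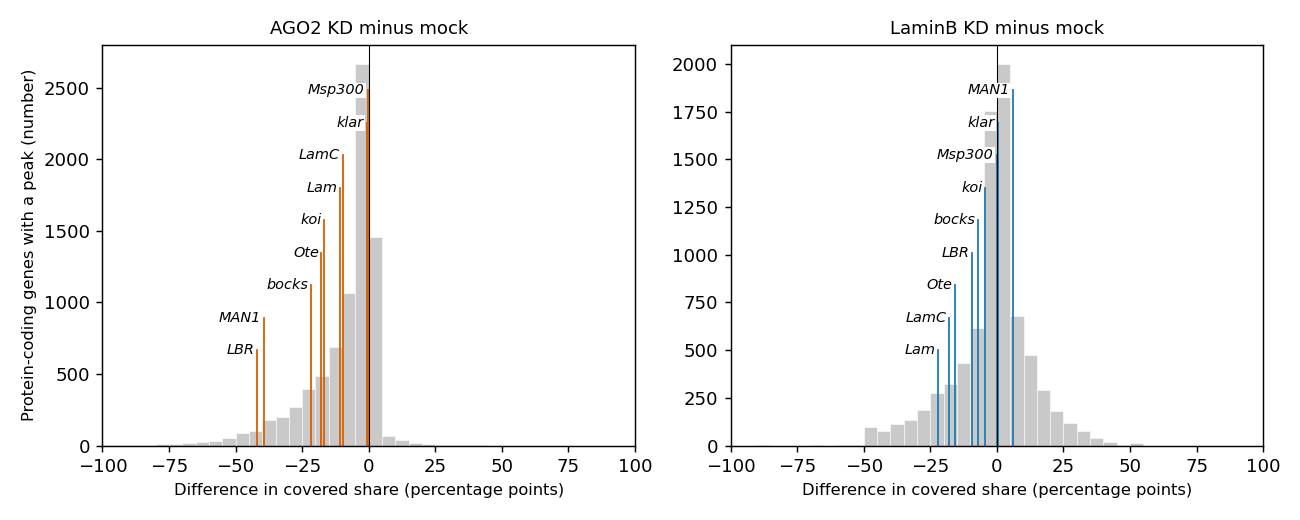
Difference in mean covered share from mock, in percentage points, for the 7904 protein-coding genes with a peak (grey bars, 5-point bins) in AGO2 KD (left) and LaminB KD (right), with the 9 genes at their own values by coloured lines, whose heights only separate the names. All 9 lie below 0 in AGO2 KD, down to -41.8 at LBR, and between -21.9 at Lam and 6.02 at MAN1 after LaminB KD.

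The gene body was taken from 500 bp downstream of the outermost start to the gene end. There the same 6 genes were lower in AGO2 KD, against 29.6% of all genes, and 0 were higher, against 0.342%. In LaminB KD 0 were lower and 0 higher, against 1.11% and 0.266% of all genes. The share of the LBR body under peaks was 86.6% and 87.2% in mock and 10.8% and 65.6% after AGO2 KD. That of koi was 41.6% and 41.8% in mock and 18.5% and 28.9% after AGO2 KD, and that of Ote 100% in both mock libraries and 73.8% and 74.2% after AGO2 KD. By contrast the body of LamC was covered to 42.2% and 56.0% in mock and 19.3% and 57.1% after AGO2 KD, with overlap. In LaminB KD 2 LamC and MAN1 had no peak in the body, and MAN1 had none in AGO2 KD 1 either.

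A further 8 nuclear envelope genes were listed by function, of which 7 were matched and Nemp1 was not. Ankle2, which acts on BAF at the end of mitosis, had a covered share of 49.8% and 79.0% in mock, 18.1% and 28.6% after AGO2 KD and 63.2% and 9.52% after LaminB KD. kuk, a farnesylated protein that shapes nuclei in the early embryo, had 21.3% and 25.5% in mock, 8.92% and 9.06% after AGO2 KD and 49.8% and 4.21% after LaminB KD. Dd, a phosphatase of the nuclear envelope, had 18.8% and 18.0% in mock, 5.57% and 16.4% after AGO2 KD and 18.7% and 14.5% after LaminB KD. Of the 6 genes of this list with a peak, these 3 were lower than mock in AGO2 KD and 0 were higher. In LaminB KD 0 were lower and 0 higher. Over all genes with a peak the same shares were 42.1%, 0.443%, 2.3% and 0.278%. The listed genes baf, ball and Torsin, at 100% in both mock libraries, could not lie above mock. Torsin, an ATPase of the space between the membranes, was covered to 100% in every library, and the testis gene spag4, a SUN domain gene like koi, had no peak in any. The median AGO2 KD difference over the 6 genes of this list that had a peak was -10.9 percentage points.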

How the data were processed

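Each of the 6 immunoprecipitated libraries had 1 peak list, and each of the 6 inputs served in peak calling. The authors trimmed reads with cutadapt, aligned them to dm6 with Bowtie2, removed duplicates with Picard and called broad peaks with MACS2 for each replicate against its input. The submitters' processing notes name cutadapt 1.10, Picard 2.11.0 and MACS2 2.1.1.20160309, and the study's methods name other versions of cutadapt and Picard. The score that the authors deposited equalled 10 times the −log10 q-value, cut to a whole number, in 99.98% to 100% of lines. The deposited fold is a ratio of pileup to local background, and the authors gave p-values and q-values as −log10, all averaged over a peak. The largest q-value in a list was between 0.0911 and 0.0999. Lists are not scaled to one another and hold no depth.

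Genes and starts came from Ensembl BDGP6.54, release 115, on the same assembly as dm6 (0 peaks ended beyond a chromosome). Peaks overlapped a feature from 1 bp. Groups came from the labels, and lower or higher means both libraries of a knockdown beyond both mock libraries. Exact permutation tests and the calls were tested on simulated data (Python 3.11.15, numpy 2.4.6, pandas 2.3.3, scipy 1.17.1, matplotlib 3.10.9). The 9 genes, all named, and the lists were chosen with earlier results of these data known. Genes like Lam or LamC were the 3 of at least 2 kb with the smallest root mean square difference. The authors' read count test needs reads, which were not used here. Alternatives were equal numbers of peaks, equal covered length, the upper 50% of peaks by score, merging within 500 bp, gene bodies alone, a gap of 10 points, other promoter rules, leaving out each library, a replicate block and ranks. No sequence of chromosome arm 2R is shown.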

Additional observations from a re-analysis of the deposited data

How the results depend on the processing

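Lists cut to the 5108 strongest peaks, lists cut to 4.19 Mb, and the upper 50% of peaks by score drop peaks whole, and the last 2 leave Lam, LBR and MAN1 without a promoter peak in some libraries. The cut to 4.19 Mb does the same to bocks, whose covered share becomes 0 in mock 2 and LaminB KD 1. Under these 3 settings in turn, 7, 4 and 4 of the 9 genes were lower in AGO2 KD (39%, 18.2% and 28.3% of all genes), and 1, 2 and 1 were lower in LaminB KD (3.64%, 8.43% and 2.07%). With the upper 50% LBR was the 1 gene higher in AGO2 KD (0.633% of all genes) and the 1 higher in LaminB KD (1.02%). The median AGO2 KD difference was 0 points at equal length and -5.25 with the upper 50%. Promoter peaks in all 6 libraries were at 5 genes at equal length and 6 with the upper 50%. The share of all genes with such peaks was not computed for these cut lists, so these counts have no background. Ranks, chosen after seeing the data, gave 3 lower and 4 higher in AGO2 KD (10.8% and 42.7% of all genes). In LaminB KD they gave 3 lower and 0 higher (16.1% and 16.4% of all genes).

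Values that changed sign in AGO2 KD were Lam (13.0 at equal length), LamC (0.766 under all 3), LBR (11.7 at equal length, 23.4 with the upper 50%) and bocks (28.2 at equal length). In LaminB KD they were Lam (11.7 at equal length), LamC (13.2 at equal number), LBR (34.5 at equal length, 56.0 with the upper 50%) and klar (-0.544, -0.301 and -0.429 under the 3). Apart from that construction, the cause was not tested.

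Leaving out each library in turn gave 6 to 9 genes lower and 0 to 2 higher in AGO2 KD, with medians of -21.6 to -11.9 points, and 0 to 9 lower and 0 to 7 higher in LaminB KD, with medians of -31.5 to 7.23. Over all genes the same shares ran from 44.2% to 71.7% and from 0.797% to 9.78% in AGO2 KD, and from 2.3% to 79.9% and from 0.291% to 72.3% in LaminB KD. AGO2 KD values ran from -24.1 to 2.58 at Lam, from -26.8 to 7.20 at LamC and from -1.36 to -0.0347 at klar. LaminB KD values ran from -51.5 to 7.60 at Lam, -44.6 to 8.56 at LamC, -19.8 to 0.857 at LBR, -21.8 to 7.23 at bocks, -31.5 to 0 at Ote, -44.0 to 56.0 at MAN1, -34.9 to 26.0 at koi, -1.83 to 2.46 at klar and -0.602 to 0.350 at Msp300.

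Same-numbered libraries did not deviate together throughout (correlations of 0.221, -0.372 and -0.457 across genes), and the main calls did not pair them. Covered shares carry the library-wide differences in covered length. These correlations therefore cannot tell whether same-numbered libraries shared a culture or a batch. With the replicate block 7 of 9 genes were lower in AGO2 KD (59.9% of all genes) and 0 lower in LaminB KD (3%). A crossed pairing of LaminB KD with mock, chosen after seeing the data, gave 0 lower and 0 higher (9.83% and 2.63% of all genes). Merging peaks within 500 bp changed nothing, since no gap was that short. Library depth is unknown and limits every comparison.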

Other observations

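The nuclear pore, the channel complex of the same envelope, was examined in the same way. Of 29 pore genes listed by function, 28 were matched, and Mtor was not matched uniquely. All 28 had a peak, and 15 had a start under a peak in all 6 libraries, against 27.3% of all protein-coding genes. That base includes genes without a peak in any library. In AGO2 KD 12 were lower than mock (Nup44A, Nup50, Nup54, Nup62, Nup75, mbo, Nup93-1, Nup107, Nup133, Nup154, Nup358 and Gp210) and 0 higher, and in LaminB KD 0 were lower and 0 higher, beside 42.1%, 0.443%, 2.3% and 0.278% of all genes. The median difference was -21.5 percentage points in AGO2 KD and -7.63 after LaminB KD. Nup44A, of the outer ring, had a covered share of 94.4% and 97.1% in mock, 46.1% and 74.9% after AGO2 KD and 95.7% and 38.7% after LaminB KD. Nup93-1, of the inner ring, had 81.2% and 72.6% in mock, 34.7% and 41.7% after AGO2 KD and 92.2% and 26.5% after LaminB KD. In both, the 2 AGO2 KD libraries and LaminB KD 2 were low and LaminB KD 1 was at or near the top. Rae1, an mRNA export factor, was covered to 100% in every library, and Gp210, a membrane protein of the pore, stayed between 5.61% and 8.67%. Pore genes at 100% in a mock library, Rae1 and Nup35 among them, could not be higher than mock.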
